A study of Mus musculus with 10 samples.

Results

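Transcripts of 10 acyl-CoA thioesterases, Acot1, Acot2, Acot3, Acot4, Acot7, Acot8, Acot9, Acot11, Acot12 and Acot13, were measured by RNA-seq in livers of fasting and refed mice with or without hepatocyte NAMPT. The members were taken by gene symbol, matched to the Ensembl gene of each count table, and are 10 of 41388 genes counted. All 10 exceeded 1 CPM (the count scaled by the total of its library) in at least 1 library and are among the 13444 genes tested. The WT Refed group held 2 mice, which per the labels had food withdrawn for 22 h and returned for 2 h. The WT Fasting group held 3 mice and the NAMPT LKO Fasting group held 5 mice, all fasted for 24 h per the labels. The paper on this experiment gives a shorter fast and describes the fed mice as random-fed, so the length of the fast and the feeding state are uncertain. All mice were male littermates of 12 weeks on the strain labelled C57B/6J, with 1 liver library per mouse. All groups carried Nampt fl/fl alleles, in which recombination sites flank a part of the Nampt gene. The WT mice lacked Cre, and the NAMPT LKO mice expressed Cre from the Albumin promoter, which is active in hepatocytes. There was no refed NAMPT LKO group, so feeding state and genotype both differ between NAMPT LKO Fasting and WT Refed livers, and the response to fasting within NAMPT LKO mice was not measured.

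Acyl-CoA thioesterases hydrolyse fatty acyl-CoA to a free fatty acid and coenzyme A (CoA), the reverse of the step catalysed by acyl-CoA synthetases, and so set how much acyl-CoA and free CoA a compartment holds. The type I enzymes (Acot1 to Acot6) are close relatives encoded in a cluster on mouse chromosome 12, and Acot1 is a classical target of PPARα, the nuclear receptor that drives fatty acid oxidation genes in the fasting liver. The type II enzymes (Acot7 to Acot13) are unrelated to them in sequence and carry a different fold. The compartment differs by member. Acot1, Acot7 and Acot12 act in the cytosol, Acot2 and Acot9 in mitochondria, and Acot3, Acot4 and Acot8 in peroxisomes.

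Total counts ranged from 30603080 to 43434139 per library. Nampt was detected at 11.8 to 15.3 CPM in the 5 NAMPT LKO livers, against 63.0 to 141 CPM in the 3 WT Fasting and 67.8 and 78.0 CPM in the 2 WT Refed livers. All 8 hepatocyte markers were detected in every group. NAMPT LKO Fasting mouse 5 stood apart from the other libraries. Mitochondrial genes took 21.1% of its counts against 7.42% to 12.9% in the other 9 libraries. The deviation of each gene in this library from its median over the other 9 followed GC content (Spearman's rho -0.56 across genes, which are not independent replicates). The summed level of 6 cholangiocyte markers was 34.3 to 54.6 CPM in NAMPT LKO Fasting, 15.2 to 22.3 CPM in WT Fasting and 20.1 to 22.5 CPM in WT Refed livers. Between the fasting genotypes these sums did not overlap, and 0 of the 5 markers tested passed, where only 0.00744% of all genes did. The 7 stellate cell markers summed to 226 to 301 CPM in NAMPT LKO Fasting, to 183 to 237 CPM in WT Fasting and to 183 to 186 CPM in WT Refed livers. The 7 Kupffer cell markers summed to 129 to 262 CPM in NAMPT LKO Fasting, 180 to 329 CPM in WT Fasting and 135 to 175 CPM in WT Refed livers. The 6 endothelial markers summed to 186 to 242, 204 to 223 and 185 to 190 CPM, and the 8 hepatocyte markers to 78407 to 130193, 93921 to 120085 and 87883 to 92668 CPM, in the same order of groups. In NAMPT LKO Fasting against WT Refed livers the cholangiocyte markers Spp1 (log2 fold change 1.55, edgeR adjusted p = 0.00427) and Epcam (1.67, edgeR adjusted p = 0.0400) and the fibroblast marker Col1a1 (2.47, edgeR adjusted p = 0.0224) were higher, as was the endothelial marker Kdr (0.37, edgeR adjusted p = 0.0475). These were 2 of 5 cholangiocyte, 1 of 7 stellate cell and fibroblast and 1 of 6 endothelial markers tested, where 11.2% of all genes passed. Of the Kupffer cell and hepatocyte markers, 0 of 7 and 0 of 8 passed. The pancreatic marker Cela1 was lower (-0.66, edgeR adjusted p = 0.0363), and the pancreatic markers Prss2, Cpa1, Try4 and Try5 were at 0 in all libraries. None of the cholangiocyte, stellate cell, Kupffer cell, endothelial and hepatocyte markers was at 0 in every library of a group. The part of these markers in the results that follow was not tested.

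The promoters of the members that passed the test in NAMPT LKO Fasting livers (Acot1, Acot2 and Acot12) are shown with that of Acot4, because the data bear on a family with known PPARα targets and Acot4 and Acot12 hold matches to its motif. The RefSeq promoter table of GRCm38.p6 held 9 of the 10 members, all but Acot13. The 250 bases before the RefSeq start are printed 5′ to 3′ on the strand of the gene, which is plus for all of them. They are chr12:84009252-84009501 (Acot1), chr12:83987611-83987860 (Acot2), chr12:84038129-84038378 (Acot4) and chr13:91741271-91741520 (Acot12). Capitals mark matches, on either strand, to the direct repeat AGGTCANAGGTCA with up to 2 mismatches in its fixed letters, the consensus of PPAR response elements, which contains the half-site AGGTCA.
Acot1: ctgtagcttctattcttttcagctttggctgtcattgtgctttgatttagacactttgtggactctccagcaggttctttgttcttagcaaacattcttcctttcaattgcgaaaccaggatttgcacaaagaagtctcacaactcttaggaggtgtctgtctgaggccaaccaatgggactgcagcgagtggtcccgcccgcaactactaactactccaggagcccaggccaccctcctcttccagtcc
Acot2: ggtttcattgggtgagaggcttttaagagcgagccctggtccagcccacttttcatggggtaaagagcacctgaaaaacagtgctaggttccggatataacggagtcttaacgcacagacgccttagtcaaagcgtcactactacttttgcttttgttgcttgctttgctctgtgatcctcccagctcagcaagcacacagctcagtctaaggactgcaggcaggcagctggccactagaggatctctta
Acot4: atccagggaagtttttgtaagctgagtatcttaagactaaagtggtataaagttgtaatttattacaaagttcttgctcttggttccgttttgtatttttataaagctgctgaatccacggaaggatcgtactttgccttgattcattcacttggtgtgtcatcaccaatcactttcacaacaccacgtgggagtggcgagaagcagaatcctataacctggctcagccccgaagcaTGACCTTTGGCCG
Acot12: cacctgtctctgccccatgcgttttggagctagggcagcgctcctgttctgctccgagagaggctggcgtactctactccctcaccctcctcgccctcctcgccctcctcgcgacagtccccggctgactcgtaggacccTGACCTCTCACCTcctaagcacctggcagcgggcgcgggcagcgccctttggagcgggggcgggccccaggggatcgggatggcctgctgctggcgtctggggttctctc
An exact copy of the direct repeat was found in none of the 9 members' windows and in 0.0335% of 32851 promoter windows of this length. With up to 2 mismatches it was found in Acot4 (2 mismatches, 1 to 13 bases before the start) and Acot12 (1 mismatch, 98 to 110 bases before the start), and in 3.24% of all windows. The exact half-site was present in the same pair of promoters and in 14.0% of all windows. A match is a description of the letters only.

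Per exonic length, Acot1 was the most abundant member in each group. The mean deposited RPKM (CPM divided by exonic length in kilobases) of Acot1 was 69.5 ± 11.8 (SD, n = 2) in WT Refed, 122 ± 45.2 (SD, n = 3) in WT Fasting and 147 ± 42.4 (SD, n = 5) in fasting NAMPT LKO livers. Acot13 and Acot12 followed, with mean levels of 58.3 and 50.9 RPKM in WT Refed, 54.3 and 70.5 RPKM in WT Fasting and 60.9 and 76.3 RPKM in NAMPT LKO Fasting livers. Acot13 was therefore above Acot12 in the refed and below it in the fasting groups, but the ranges of Acot12 and Acot13 overlapped in both fasting groups. The next level was shared by Acot3, Acot4 and Acot2, at 12.2 to 18.1 RPKM in WT Refed, 19.96 to 24.2 RPKM in WT Fasting and 19.8 to 27.8 RPKM in NAMPT LKO Fasting livers. Acot2 was the lowest of these in refed livers, below both libraries of Acot4, and the ranges of all neighbours among them overlapped in the fasting groups. Acot8 (10.5, 12.1 and 10.9 RPKM, in the same order of groups) and Acot7 (8.43, 8.34 and 7.40 RPKM) were lower. Acot9 and Acot11 were the lowest, at group means of 0.753 to 1.23 RPKM, and their order was Acot11 above Acot9 in WT Refed and Acot9 above Acot11 in fasting livers, with ranges that overlapped in WT Refed and NAMPT LKO Fasting livers. Acot1 made up 26.3% and 29.7% of the summed RPKM of the 10 members in the refed livers, 32.2% to 40.1% in WT Fasting and 27.6% to 44.4% in NAMPT LKO Fasting livers, where the lowest share was that of mouse 5.

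**Figure D1:**
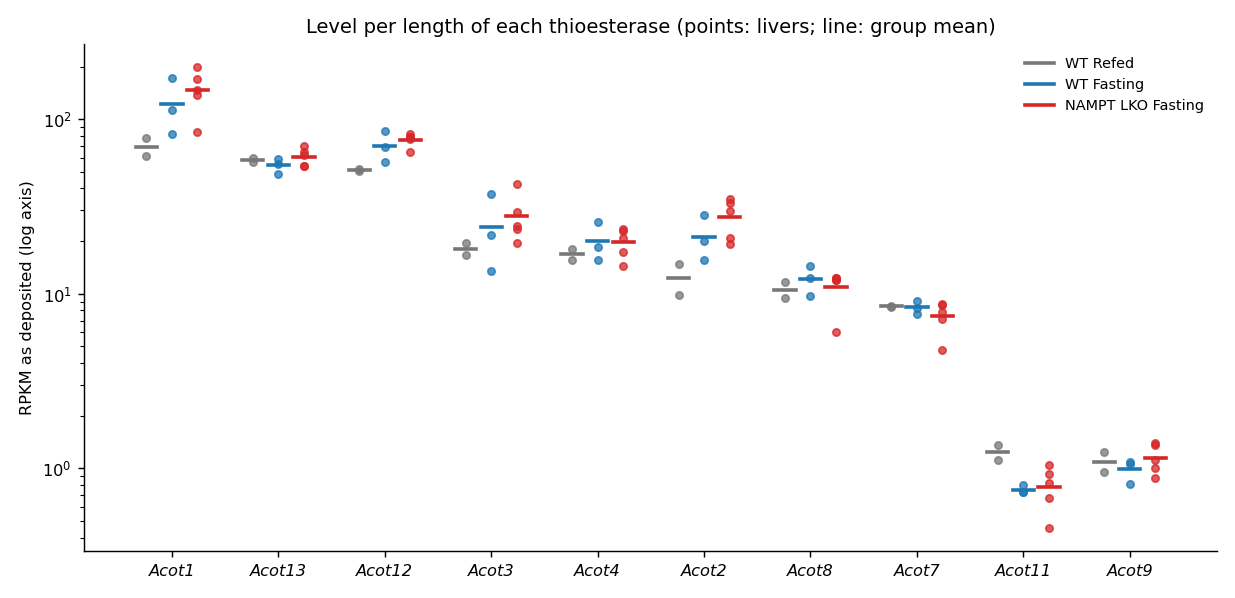
Deposited RPKM of each thioesterase on a log axis, with 1 point per liver and a line at each group mean, ordered by the mean in WT Refed livers. Acot1 leads in each group, and Acot9 and Acot11 lie lowest, at group means of 0.753 to 1.23 RPKM.

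Of the 10 thioesterases, 3 were higher in NAMPT LKO Fasting than in WT Refed livers at an adjusted p at or under 0.05 (edgeR's quasi-likelihood test with Benjamini-Hochberg adjustment over all genes), where 11.2% of all genes passed in either direction and 4.65% were higher. They were Acot1, Acot2 and Acot12, and 0 members were lower (6.58% of all genes were). Acot11 also had an unadjusted p under 0.05, as had 26.1% of all genes. The same 3 members were called by edgeR's exact test (12.9% of all genes) and by DESeq2 (16.8% of the genes it gave an adjusted p), and limma's voomWithQualityWeights called these and Acot11, which was lower (31.8% of all genes). In WT Fasting against WT Refed livers 0 members passed this test, where 7.04% of all genes did (2.68% higher and 4.36% lower in WT Fasting livers), although 4 members (Acot1, Acot2, Acot11 and Acot12) had an unadjusted p under 0.05 (22.3% of all genes). With other tools the same comparison gave 0 members by edgeR's exact test (8.91% of all genes), 1 by DESeq2 (Acot12, beside 12.3% of genes) and 4 by limma's voomWithQualityWeights (Acot1, Acot2, Acot11 and Acot12, beside 24.8% of genes). In NAMPT LKO Fasting against WT Fasting livers 0 members passed (0.00744% of all genes did, which is Nampt alone), 0 had an unadjusted p under 0.05 (6.03% of all genes), and edgeR's exact test, limma's voomWithQualityWeights and DESeq2 called 0 (they called 0.179%, 0.00744% and 0.183% of genes). The median log2 fold change of the 10 members was 0.28 in WT Fasting and 0.25 in NAMPT LKO Fasting livers relative to WT Refed livers, beside medians of 0.04 and 0.03 over all genes tested. Both comparisons use the same 2 refed livers. Between the fasting genotypes the median of the members was 0.18 and that of all genes 0.00025. In whole liver, fewer cells of a type and less RNA per cell cannot be told apart.

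**Figure D2:**
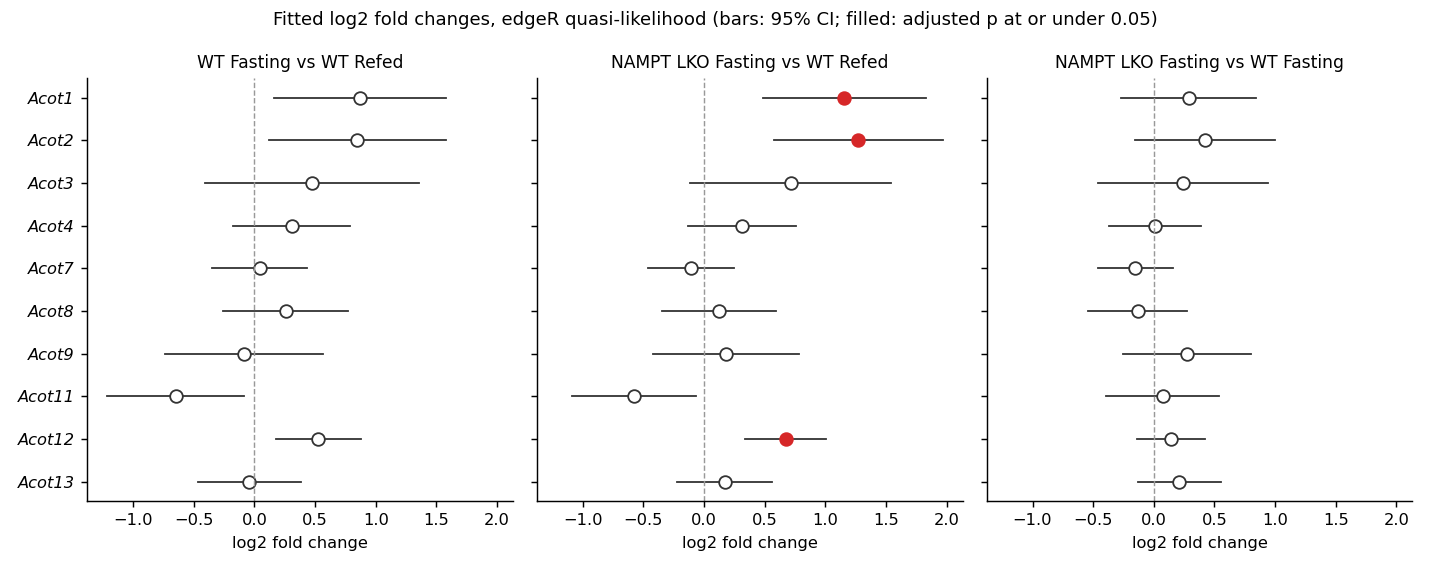
Fitted log2 fold change of each member in the 3 comparisons (points) with 95% confidence intervals (bars). Filled points passed the edgeR test, which were Acot1, Acot2 and Acot12 in NAMPT LKO Fasting against WT Refed livers, and each interval between the fasting genotypes includes 0.

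Acot1, the cytosolic long-chain enzyme (chr12:84009502-84017670 of GRCm38, plus strand, ENSMUSG00000072949), was measured at 118 and 92.6 TMM-normalised CPM in the WT Refed livers. It was at 266, 184 and 126 CPM in WT Fasting mice 1, 2 and 3, and at 261, 312, 223, 217 and 156 CPM in NAMPT LKO Fasting mice 1 to 5. All 8 fasting livers were above both refed livers, and the ranges of the fasting genotypes overlapped. The fold change in WT Fasting over WT Refed livers was 1.83 (95% CI 1.12 to 2.98, edgeR adjusted p = 0.136), and that in NAMPT LKO Fasting over WT Refed livers was 2.23 (95% CI 1.4 to 3.55, edgeR adjusted p = 0.0352). NAMPT LKO Fasting and WT Fasting livers differed by 1.22-fold (95% CI 0.831 to 1.79, edgeR adjusted p = 0.859), with an interval that includes no difference.

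Acot2, the mitochondrial counterpart of Acot1 (chr12:83987861-83993873, plus strand, ENSMUSG00000021226), was at 31.3 and 20.9 CPM in WT Refed, 61.4, 46.0 and 33.5 CPM in WT Fasting and 76.2, 73.6, 45.1, 42.8 and 77.6 CPM in NAMPT LKO Fasting livers. Again each fasting liver was above both refed livers, with WT Fasting mouse 3 the nearest to them. Acot2 had the largest fold change of the family in NAMPT LKO Fasting over WT Refed livers, at 2.42 (95% CI 1.49 to 3.93, edgeR adjusted p = 0.0282), beside 1.80 in WT Fasting over WT Refed livers (95% CI 1.09 to 2.99, edgeR adjusted p = 0.159). The difference between the fasting genotypes was 1.34-fold (95% CI 0.900 to 2.00, edgeR adjusted p = 0.837), and 3 of 5 NAMPT LKO livers were above all WT Fasting livers.

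The coding sequences of Acot1 and Acot2 were identical at 95.6% of aligned bases, against 75.3% to 85.8% for the other pairs among Acot1 to Acot6. Of all 50-base windows in their transcripts, 18.4% of those of Acot1 and 27.6% of those of Acot2 occurred in another gene of the family, so reads from these stretches could not be counted as unique and both levels may be understated. The sum of Acot1 and Acot2 was 131 ± 25 CPM (SD, n = 2) in WT Refed, 239 ± 84.2 CPM (SD, n = 3) in WT Fasting and 297 ± 62.6 CPM (SD, n = 5) in fasting NAMPT LKO livers. The ratio of Acot1 to Acot2 in RPKM was 4.83 to 7.16 in 9 livers and 2.84 in NAMPT LKO Fasting mouse 5, where the RPKM of Acot1 was the lowest of the 5 NAMPT LKO livers. The GC content of the annotated transcripts was 46.9% for Acot1 and 53.7% for Acot2. The part of this library's GC trend in the ratio was not tested.

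**Figure D3:**
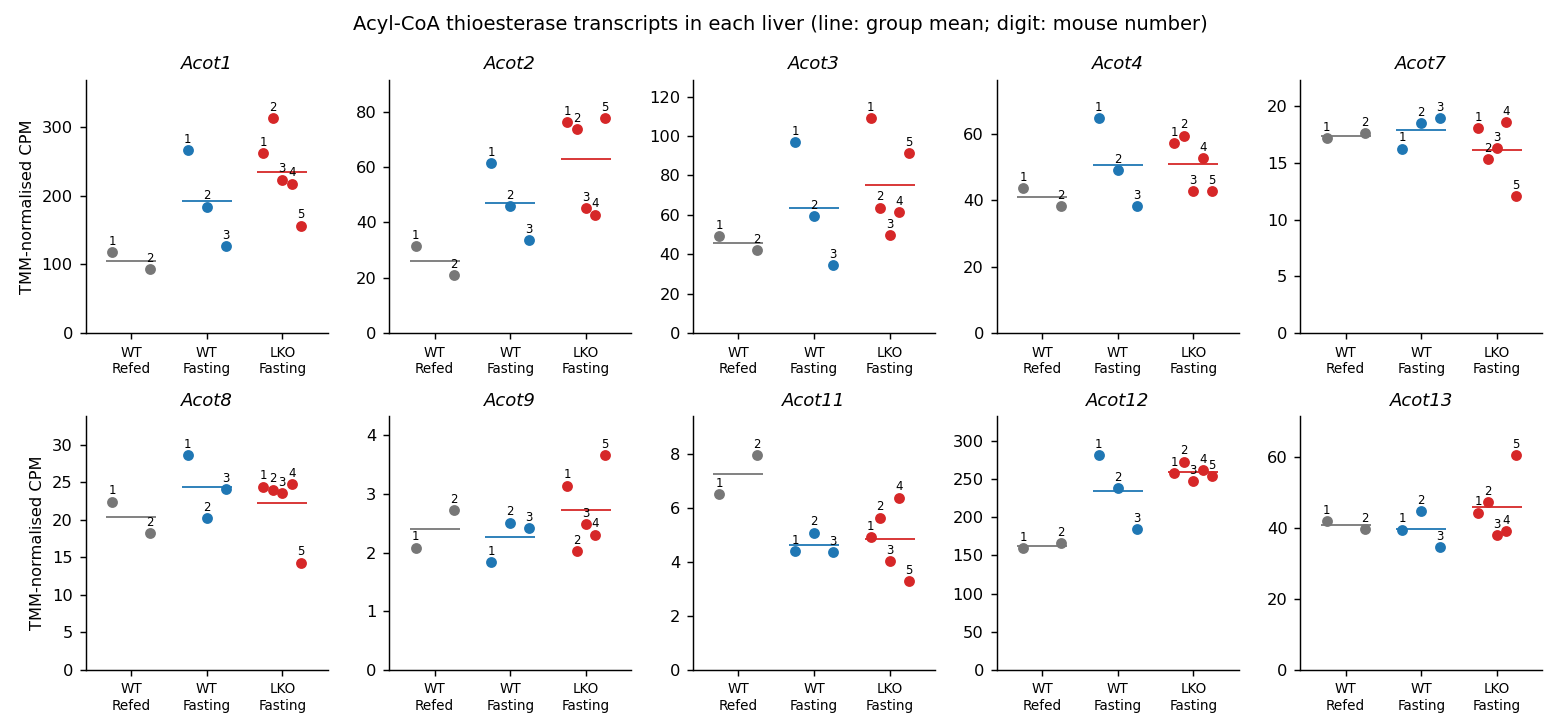
TMM-normalised CPM of each thioesterase in each liver, on linear axes from 0, with 1 point per mouse (digit: mouse number) and a line at each group mean. Acot1, Acot2 and Acot12 lie higher in each fasting liver than in both refed livers, Acot11 lies lower, and the fasting genotypes overlap for each gene.

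Among the peroxisomal enzymes, Acot3 (chr12:84052144-84059565, plus strand), which hydrolyses long-chain acyl-CoA, was at 49.3 and 42.1 CPM in WT Refed livers. It spread widely in WT Fasting livers, at 96.8, 59.6 and 34.6 CPM, and lay at 109, 63.7, 49.8, 61.5 and 91.3 CPM in NAMPT LKO Fasting livers. WT Fasting mouse 3 was below both refed livers, whereas all 5 NAMPT LKO livers were above them, mouse 3 by less than 1 CPM. Neither comparison passed the test (WT Fasting over WT Refed 1.39-fold, 95% CI 0.755 to 2.57, edgeR adjusted p = 0.526; NAMPT LKO Fasting over WT Refed 1.64-fold, 95% CI 0.924 to 2.92, edgeR adjusted p = 0.262).

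Acot4 (chr12:84038379-84044723, plus strand), which acts on succinyl-CoA and dicarboxylyl-CoA, was at 43.6 and 38.2 CPM in WT Refed, 64.6, 48.9 and 38.2 CPM in WT Fasting and 57.1, 59.4, 42.7, 52.6 and 42.8 CPM in NAMPT LKO Fasting livers. The groups overlapped in each comparison. The mean of NAMPT LKO Fasting livers was the closest to that of WT Fasting livers of any member, with a fold change of 1.01 (95% CI 0.772 to 1.31, edgeR adjusted p = 0.995). Exons of Acot3 and Acot4 share 12.0% and 24.5% of their bases with a transcript of the opposite strand, 4732463B04Rik. Whether counting used strand is not given in the sources used here, so these reads cannot be assigned with certainty. Of the 50-base windows in their transcripts, 7.57% of those of Acot3 and 4.17% of those of Acot4 occurred in another gene of the family, so these levels may be understated as well. The shares found in any gene on either strand were 21.3% for Acot3, most often in Gm49366, and 13.4% for Acot4, most often in 4732463B04Rik. These larger shares include the overlap with 4732463B04Rik given above.

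Acot8 (chr2:164792768-164804882, minus strand), a peroxisomal enzyme of broad specificity that also accepts bile acid CoA esters, ranged from 18.3 to 28.6 CPM in 9 livers and was at 14.3 CPM in NAMPT LKO Fasting mouse 5. The other 4 NAMPT LKO livers lay between 23.5 and 24.7 CPM. Its fold changes were 1.20 in WT Fasting over WT Refed (95% CI 0.837 to 1.71) and 0.913 in NAMPT LKO Fasting over WT Fasting livers (95% CI 0.688 to 1.21), and neither passed the test. Exons of Acot8 share 12.2% of their bases with Snx21 on the opposite strand.

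Acot12 (chr13:91741512-91786148, plus strand, ENSMUSG00000021620), which hydrolyses acetyl-CoA in the cytosol, was at 159.7 and 165.8 CPM in WT Refed livers. It was at 282, 238 and 184 CPM in WT Fasting and at 258, 273, 248, 262 and 254 CPM in NAMPT LKO Fasting livers. The refed pair lay below all fasting livers, and the 5 NAMPT LKO livers (259 ± 9.41 CPM, SD, n = 5) spread less than the 3 WT Fasting livers (235 ± 48.9 CPM, SD, n = 3); the difference in spread was not tested. Acot12 had the lowest adjusted p of the family in NAMPT LKO Fasting over WT Refed livers, with a fold change of 1.59 (95% CI 1.27 to 2.00, edgeR adjusted p = 0.0177). In WT Fasting over WT Refed livers the fold change was 1.44 (95% CI 1.13 to 1.84, edgeR adjusted p = 0.0753), and between the fasting genotypes it was 1.10 (95% CI 0.910 to 1.34, edgeR adjusted p = 0.859). The call for WT Fasting over WT Refed livers depended on the libraries used. The edgeR adjusted p was 0.0212 without WT Fasting mouse 3 and 0.0381 without NAMPT LKO Fasting mouse 5, which enters only the estimate of the spread and the scaling. Over all alternatives, limma's voomWithQualityWeights and DESeq2 included, the adjusted p ranged from 0.00214 (voomWithQualityWeights) to 0.351 (edgeR without WT Refed mouse 1).

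Acot11 (Them1, chr4:106744555-106804998, minus strand), which like Acot12 carries a START lipid-binding domain and is best known from brown fat, was the member whose level was lower in fasting livers. It was at 6.52 and 7.95 CPM in WT Refed, 4.41, 5.08 and 4.35 CPM in WT Fasting and 4.93, 5.64, 4.03, 6.38 and 3.28 CPM in NAMPT LKO Fasting livers. Both refed livers were above all 8 fasting livers, NAMPT LKO mouse 4 by little. The fold changes relative to WT Refed livers, 0.637 in WT Fasting (95% CI 0.430 to 0.945, edgeR adjusted p = 0.165) and 0.670 in NAMPT LKO Fasting livers (95% CI 0.470 to 0.957, edgeR adjusted p = 0.143), did not pass the test. With limma's voomWithQualityWeights both passed (adjusted p = 0.0294 and 0.0335), and over all alternatives the adjusted p ranged from 0.0294 to 0.600 and from 0.0335 to 0.611. Adipocyte markers summed to 0.359 and 0.461 CPM in WT Refed, to 0.0930 to 0.311 CPM in WT Fasting and to 0.0973 to 0.434 CPM in NAMPT LKO Fasting livers, and 0 of the 6 reached the level needed for testing. Exons of Acot11 share 20.9% of their bases with Fam151a on the opposite strand. The part of both in the result was not tested.

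Acot13 (Them2, chr13:24817948-24831517, minus strand), the partner of phosphatidylcholine transfer protein, ranged from 34.6 to 44.8 CPM in WT livers. It lay at 37.9 to 60.5 CPM in NAMPT LKO Fasting livers, where mouse 5 was the highest. The fold change was 0.972 in WT Fasting over WT Refed (95% CI 0.725 to 1.30) and 1.16 in NAMPT LKO Fasting over WT Fasting livers (95% CI 0.913 to 1.46). Neither comparison passed the test.

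The remaining members differed little in mean between the groups. Acot7 (chr4:152178134-152271855, plus strand), a cytosolic enzyme best known from brain, was at 12.1 to 18.9 CPM in all livers, with fold changes of 1.03 in WT Fasting over WT Refed (95% CI 0.786 to 1.35) and 0.899 in NAMPT LKO Fasting over WT Fasting livers (95% CI 0.725 to 1.12). Acot9 (chrX:155262443-155297654, plus strand), a mitochondrial enzyme, was at 1.84 to 3.67 CPM, with 63 to 124 reads per library and with 15.2% of its windows shared, mainly with Acot10. Its fold changes were 0.940 (95% CI 0.599 to 1.48) and 1.21 (95% CI 0.836 to 1.74) in the same 2 comparisons, and neither passed the test.

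Counted without a test, the libraries of the 2 groups did not overlap for 5 of 10 members in NAMPT LKO Fasting against WT Refed (Acot1, Acot2, Acot3 and Acot12 higher, Acot11 lower; 33.5% of all genes), for 4 of 10 in WT Fasting against WT Refed (the same without Acot3; 49.7% of all genes) and for 0 of 10 in NAMPT LKO Fasting against WT Fasting livers (3.99% of all genes). In WT Fasting livers, mouse 1 was the highest and mouse 3 the lowest for Acot1, Acot2, Acot3, Acot4 and Acot12. Mouse 3 also had the highest Nampt of the WT Fasting livers, at 141 CPM against 63.0 and 73.4 CPM, and the lowest share of mitochondrial counts of all 10 libraries (7.42%). Its 7 Kupffer cell markers were the highest of all 10 libraries, at a mean of 0.89 log2 units above their average over the libraries, against -0.19 and -0.16 in WT Fasting mice 1 and 2. The part of these in its thioesterase levels was not tested.

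The calls in NAMPT LKO Fasting over WT Refed livers rested on both refed libraries. Without WT Refed mouse 1 the edgeR adjusted p was 0.149 for Acot1, 0.0953 for Acot2 and 0.168 for Acot12, and without WT Refed mouse 2 it was 0.310, 0.296 and 0.168. The single refed liver that remained was then assumed to vary like the other groups. Acot12 passed in each fit that left out 1 fasting liver. Acot2 did not pass without NAMPT LKO mouse 1 (edgeR adjusted p = 0.0514) or mouse 2 (0.0589). Acot1 did not pass without NAMPT LKO mouse 1, 2, 3 or 4 (edgeR adjusted p = 0.0623, 0.0667, 0.0588 and 0.0527), without WT Fasting mouse 2 (0.0524) or when scaled by library size alone (0.0652). Over all alternatives, other tools included, the adjusted p ranged from 0.000410 to 0.310 for Acot1, from 0.000550 to 0.296 for Acot2 and from 0.000248 to 0.168 for Acot12. The log2 fold changes stayed between 0.99 and 1.33 for Acot1, 1.00 and 1.58 for Acot2 and 0.58 and 0.69 for Acot12 over the same 18 alternatives. All 3 passed without NAMPT LKO mouse 5 and in a fit corrected for the GC trend of each library.

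**Figure D4:**
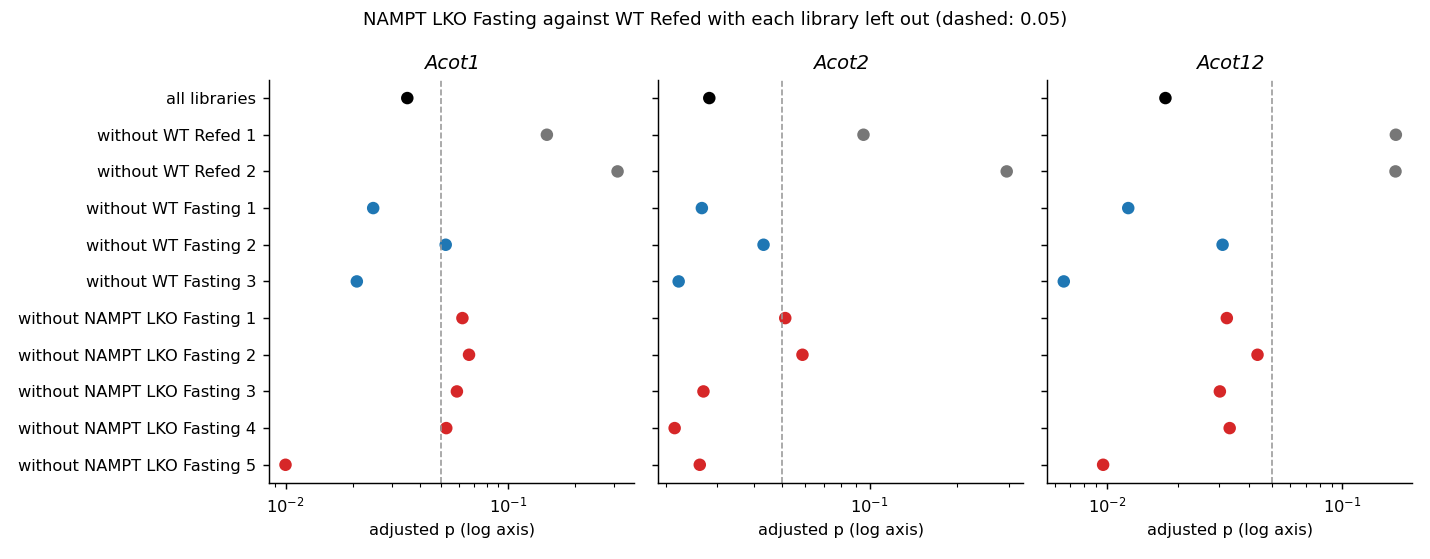
Adjusted p (edgeR, log axis) of Acot1, Acot2 and Acot12 in NAMPT LKO Fasting against WT Refed livers in the fit of all libraries (black) and with each library left out (grey, WT Refed; blue, WT Fasting; red, NAMPT LKO Fasting). The dashed line marks 0.05, to the right of which all 3 genes lie when either refed library is left out.

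Of 19 other thioesterases, 16 were tested. In NAMPT LKO Fasting over WT Refed livers 1 was higher and 0 were lower (4.65% and 6.58% of all genes). By edgeR's quasi-likelihood test 0 were called in WT Fasting against WT Refed (7.04% of all genes) and 0 in NAMPT LKO Fasting against WT Fasting livers (0.00744%). In these 2 comparisons 3 (22.3% of all genes) and 0 (6.03%) had an unadjusted p under 0.05. In NAMPT LKO Fasting against WT Refed livers 4 (Acot5, Mblac2, Them6 and Ppt1) had an unadjusted p under 0.05, beside 26.1% of all genes. The one called was Acot5, a peroxisomal type I enzyme of the same cluster, at 0.887 ± 0.0178 CPM (SD, n = 2) in WT Refed, 1.56 ± 0.284 CPM (SD, n = 3) in WT Fasting and 1.97 ± 0.531 CPM (SD, n = 5) in fasting NAMPT LKO livers (NAMPT LKO Fasting over WT Refed 2.21-fold, 95% CI 1.34 to 3.65, edgeR adjusted p = 0.0470), with 39 reads in each refed library. Both refed livers lay under the filter level of 1 CPM (at most 0.899 CPM) and all fasting livers above it (at least 1.28 CPM). Acot5 was thus tested only through the groups where it was higher, and its call carries that selection. Besides Acot5, the lowest unadjusted p values in both comparisons with WT Refed livers were those of Mblac2 and Them6, which did not pass after adjustment. Mblac2 was at a fold change of 0.671 in WT Fasting (95% CI 0.502 to 0.898, edgeR adjusted p = 0.0991) and 0.751 in NAMPT LKO Fasting livers (95% CI 0.577 to 0.978, edgeR adjusted p = 0.158). Them6 was at 0.573 (95% CI 0.342 to 0.961, edgeR adjusted p = 0.190) and 0.606 (95% CI 0.381 to 0.965, edgeR adjusted p = 0.161). Acot6, the last gene of the cluster, had a fold change of 0.577 in WT Fasting over WT Refed livers (95% CI 0.279 to 1.20) and did not pass. Baat, which conjugates bile acids and shares the type I fold, was at a fold change of 0.927 (95% CI 0.783 to 1.10), and Hibch, a mitochondrial thioesterase of valine breakdown, at 1.10 (95% CI 0.798 to 1.53). Acot10, Them5 and Olah had at most 10 counts in a library and were not tested.

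Genes that make, carry or break down CoA and acyl-CoA were counted next to the thioesterases. Of 16 acyl-CoA synthetases and fatty acid transport proteins tested, 2 rose (Slc27a1 and Slc27a2) and 1 fell (Acsl4) in WT Fasting relative to WT Refed livers. Of all genes, 2.68% rose and 4.36% fell there. The same 3 were called in NAMPT LKO Fasting relative to WT Refed livers, where 4.65% of all genes rose and 6.58% fell. Slc27a1, a fatty acid transporter with synthetase activity, changed 2.00-fold (edgeR adjusted p = 0.00570) and 1.59-fold (edgeR adjusted p = 0.0186), and Slc27a2, its very long chain relative, 1.48-fold (edgeR adjusted p = 0.0441) and 1.56-fold (edgeR adjusted p = 0.0153). Acsl4, which prefers arachidonate, fell to 0.454 (edgeR adjusted p = 0.0300) and 0.533 (edgeR adjusted p = 0.0368) of the refed level. The median log2 fold change over the 16 genes was 0.13 and 0.15, beside 0.04 and 0.03 over all genes tested.

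Of 16 genes of CoA synthesis, transport and breakdown, 2 rose and 1 fell in WT Fasting and 5 rose and 1 fell in NAMPT LKO Fasting relative to WT Refed livers. The share of all genes called was also larger in the second comparison, at 11.2% against 7.04% (4.65% against 2.68% higher, 6.58% against 4.36% lower). Nudt7, the peroxisomal hydrolase of CoA, was the gene that fell, from 349 CPM in WT Refed to 69.6 CPM in WT Fasting (fold change 0.199, edgeR adjusted p = 0.000340) and 77.7 CPM in NAMPT LKO Fasting livers (fold change 0.223, edgeR adjusted p = 0.000153). Enpp3, an ectonucleotide pyrophosphatase, rose 2.52-fold (edgeR adjusted p = 0.00203) and 2.67-fold (edgeR adjusted p = 0.000724), and Slc25a42, the mitochondrial CoA carrier, 1.97-fold (edgeR adjusted p = 0.0411) and 1.78-fold (edgeR adjusted p = 0.0443). The other 3 that rose in NAMPT LKO Fasting livers were Enpp1, Pank1, the first enzyme of CoA synthesis, and Vnn1, a pantetheinase. In WT Fasting livers Pank1 was at 1.56-fold of the refed level with an edgeR adjusted p of 0.0502.

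Of 13 acyl-CoA and fatty acid binding proteins tested, 1 fell and 0 rose in both comparisons with refed livers. The gene that fell was Fabp5, at 0.400 (edgeR adjusted p = 0.0384) and 0.472 (edgeR adjusted p = 0.0396) of the refed level. Of all genes, 4.36% were called lower and 2.68% higher in WT Fasting, and 6.58% lower and 4.65% higher in NAMPT LKO Fasting livers. Of 38 PPARα targets outside the family, 8 rose in WT Fasting and 11 rose in NAMPT LKO Fasting livers, as did 2.68% and 4.65% of all genes. In both comparisons 0 of the 38 fell, against 4.36% and 6.58% of all genes. Acsl1, Fabp1 and Vnn1 were counted here and in the lists above. The median log2 fold changes of the 38 targets were 0.30 and 0.34, beside 0.04 and 0.03 over all genes tested. Angptl4, a secreted inhibitor of lipoprotein lipase, rose 5.20-fold in WT Fasting (edgeR adjusted p = 0.000253), Pdk4, the pyruvate dehydrogenase kinase of fasting, 7.99-fold (edgeR adjusted p = 0.00715) and Plin2, the lipid droplet coat protein, 2.13-fold (edgeR adjusted p = 0.00663). The mean log2 level of these 38 genes, centred over the libraries, was -0.36 and -0.56 in the refed livers, 0.21, 0.10 and -0.02 in WT Fasting mice 1, 2 and 3, and 0.01 to 0.23 in NAMPT LKO Fasting livers. Of 17 regulators of these genes, 0 passed in WT Fasting livers (edgeR, 7.04% of all genes), with 3 at an unadjusted p under 0.05 (22.3% of all genes). In NAMPT LKO Fasting relative to WT Refed livers 2 passed, beside 11.2% of all genes. They were Ppara (1.45-fold, edgeR adjusted p = 0.0454) and its coactivator Ppargc1a (3.38-fold, edgeR adjusted p = 0.0236), both higher.

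When the fasting genotypes were compared, 0 genes of these 5 lists passed edgeR's quasi-likelihood test (0.00744% of all genes). Among the synthetases, the CoA genes and the PPARα targets, 1 each had an unadjusted p under 0.05 (6.03% of all genes). These were Slc27a1 (0.793-fold, 95% CI 0.654 to 0.961), Ppcdc, a decarboxylase of CoA synthesis (0.742-fold, 95% CI 0.572 to 0.961), and Ehhadh, the peroxisomal bifunctional enzyme (1.4-fold, 95% CI 1.06 to 1.84).

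Over the 10 libraries, the profiles most like those of the 4 type I members were found among 9170 genes by the root mean square distance between centred log2 levels. Heca, Mbtd1 and Zfp704 were nearest to Acot1 (distances of 0.21 to 0.22 log2 units, where the profile of Acot1 itself had a root mean square of 0.55). Hmgb3, Pde4d and Dixdc1 were nearest to Acot2 (0.23 to 0.27, own value 0.60), Tbc1d30, Scyl2 and Lum to Acot3 (0.26 to 0.28, own value 0.51), and Mapre3, Me1 and Plpp3 to Acot4 (0.10 to 0.11, own value 0.25). None of the 3 genes nearest to each of these 4 was a member.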

How the data were processed

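The members, the gene lists and the tests were chosen with earlier results of these data known. Liver RNA was selected with oligo-dT and sequenced as single reads of 50 bases. Per the labels, the authors used STAR 2.5.1a and featureCounts 1.4.6-p5 with GRCm38, whereas the paper's methods give other versions, and strand handling is not given in the sources used here. The authors deposited for each library the count of reads on each Ensembl gene, the CPM (the count scaled to the library total) and the RPKM (CPM per kilobase of exon). Counts were used as deposited, and CPM values in the text were recomputed with TMM scaling.

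Of 41388 genes, 40340 were given a GENCODE symbol. Filtering required over 1 CPM in any 1 library and dropped 355 rRNA genes, and the 13444 genes that remained were tested in 1 fit of all 10 libraries with edgeR 4.0.16 (TMM, quasi-likelihood test, 1 mean per group, Benjamini-Hochberg threshold of 0.05) in R 4.3.3. The code was tested on simulated data. Alternatives were edgeR's exact test, limma 3.58.1 (voomWithQualityWeights, the test named in the paper's methods), DESeq2 1.42.0, library-size scaling, other filters, GC correction (loess span 0.5), fits of 2 groups, a replicate block and fits without 1 library. All members are named, as are list genes by lowest p and list members that were called. Likeness used genes averaging 5 CPM or more and a prior count of 2. Sharing of 50-base windows and exon overlaps used GENCODE transcripts of GRCm38. No libraries within a group agreed within sampling noise. Confidence intervals are 95% intervals of the edgeR fit.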

Additional observations from a re-analysis of the deposited data

Results flagged for a closer look

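Acot8 in NAMPT LKO Fasting mouse 5 was far from the other 4 mice of its group, at 14.3 CPM against 23.5 to 24.7 CPM. Its gap to the nearest of them divided by the range of the group was 0.885, above the limit of 0.71 that marks an outlier among 5 libraries. The 10 members were examined in this way in the group of 5, where chance alone flags about 5% of groups, and 1 value was past the limit. The same library had 21.1% of its counts on mitochondrial genes and a trend with GC content (rho -0.56 across genes), and the part of these in the value was not tested.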

How the results depend on the processing

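In NAMPT LKO Fasting against WT Fasting livers, 0 members were called under any alternative run. Leaving out each library in turn gave 0 to 1 members in WT Fasting against WT Refed livers and 0 to 3 in NAMPT LKO Fasting against WT Refed livers. In WT Fasting against WT Refed livers, 4 members had an unadjusted p under 0.05, 4 were called by voomWithQualityWeights and 1 by DESeq2. Over all genes tested, the main count of 946 genes in WT Fasting against WT Refed livers was 3331 with voomWithQualityWeights, 1646 with DESeq2, 1440 with the GC trend removed, 1649 in a fit of these 2 groups, and 107 to 2231 with 1 library left out. For NAMPT LKO Fasting against WT Refed livers the count of 1510 was 4281 with voomWithQualityWeights and 227 to 2835 with 1 library left out. For NAMPT LKO Fasting against WT Fasting livers the count of 1 was 24 with the exact test, 24 with DESeq2, 2 with library size alone, 3 with filterByExpr, 17 without a filter, 3 with the GC trend removed and 1 to 2 with 1 library left out. In the libraries numbered 1 to 3, fewer in number, 0 genes and 0 members were called with the replicate block and 0 without it. Same-numbered libraries correlated at 0.104, 0.0782 and 0.0971, each the highest of its number, which does not pair the mice.

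No member whose sign turned had been called in that comparison. In WT Fasting against WT Refed livers, the log2 fold change of Acot13 was 0.019 with voomWithQualityWeights and -0.14 to 0.039 with 1 library left out, that of Acot7 -0.022 with library size alone and -0.0096 to 0.096, and that of Acot9 -0.28 to 0.11. Between the fasting genotypes, Acot8 was at 0.022 with voomWithQualityWeights and -0.25 to 0.0037, and Acot4 at -0.012 with library size alone, -0.0024 without a filter, -0.019 with the GC trend removed and -0.16 to 0.23. With 1 library left out, Acot3 ranged from -0.060 to 0.68, Acot12 from -0.0050 to 0.30 and Acot11 from -0.046 to 0.18. In NAMPT LKO Fasting against WT Refed livers, Acot9 ranged from -0.012 to 0.38 and Acot8 from -0.022 to 0.27. The cause of these shifts was not tested. With 2 refed livers, both comparisons with them rest on 1 estimate of the spread shared by all groups. Counting error limits Acot9 most, at 63 to 124 reads per library.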
